A study of Mus musculus with 2 samples.

Results

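The genes described here encode the proteins of the cytoplasmic ribosome. They were taken from the GENCODE mouse release 21 annotation of mm10 as the autosomal protein-coding genes whose symbol is Rpl or Rps, a number and at most 1 further letter, without the -ps pseudogenes, the Rps6k kinases and the Rps19bp genes. This rule gave 72 of the 20807 autosomal protein-coding genes. Of these, 43 were Rpl genes, which encode proteins of the large subunit, and 29 were Rps genes, which encode proteins of the small subunit. The rule uses symbols alone. A further 4 genes with such symbols (Rpl10, Rpl36a, Rpl39 and Rps4x) lie on chromosome X, where neither peak list holds a peak, and they were left out.

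The ribosome is the particle that translates mRNA into protein. Its small subunit reads the mRNA and its large subunit joins the amino acids, and each subunit is built in the nucleolus from ribosomal RNA and 1 copy of nearly every ribosomal protein. All cells that grow need these proteins in matched amounts, so the genes are counted among the housekeeping genes, and many start at a C within a stretch of pyrimidines (the bases C and T) that becomes the 5′ end of the mRNA and lets its translation follow nutrient and growth signals through mTOR. In humans, loss of 1 copy of several of these genes causes Diamond-Blackfan anemia, which can come with short stature and skeletal malformations, and in mice a deletion of Rpl38 causes the Tail-short skeletal phenotype.

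Open chromatin was profiled by ATAC-seq, in which a transposase inserts sequencing adapters into accessible DNA, in chondrocytes from the cartilaginous ends of femurs of E15.5 mouse embryos of the FVBNJ strain, without further treatment or genetic change named in the labels. There were 2 groups, proximal femur and distal femur, with 1 peak list each. Each list holds the peaks that the authors kept as reproducible between 2 biological replicates, each replicate being cartilage pooled from a litter, so that no list belongs to a single animal. The tissue held the growth plate, the perichondrium over it and the cartilage beyond, so peaks come from a mixture of cells. A comparison of the ends is therefore a comparison of 2 lists with no replicate error and no test, and intervals in the text are 95% Wilson intervals, which cover counting error only. The proximal list held 28257 peaks and the distal list 27958, given as positions without heights, so the depth behind a single peak is unknown. Of 8 chondrocyte marker genes, 6 had a promoter peak in the proximal list and 7 in the distal list (Matn1 had none and Col11a2 had one in the distal list). Of 4 marker genes each for osteoblasts, muscle, endothelium and epithelium, 0, 0, 1 (Kdr) and 1 (Epcam) had one, with the same counts in both lists.

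The start regions of 11 ribosomal protein genes are shown for the pyrimidine runs they carry. They are examples and not typical of all members, and they include those that lacked a peak in a list (Rpl4, Rpl12, Rpl19 and Rpl38). Each run below reads 5′ to 3′ on the coding strand from 40 bases before the start to 20 bases from it on, as RefSeq gives the promoter in GRCm38.p6, which has the chromosome sequences of mm10. Capitals mark the longest unbroken run of C and T that touches the 20 bases on either side of the start. Where RefSeq gives several starts, as for Rpl19, the start with the longest such run was taken. The run lengths shown are thus partly selected for length.
Rpl4 (chr9:64173347-64173406, + strand): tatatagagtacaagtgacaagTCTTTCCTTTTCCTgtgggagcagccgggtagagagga
Rpl12 (chr2:32961672-32961731, + strand): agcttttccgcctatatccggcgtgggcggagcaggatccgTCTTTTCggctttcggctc
Rpl19 (chr11:98026884-98026943, + strand): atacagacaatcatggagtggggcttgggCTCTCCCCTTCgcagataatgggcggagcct
Rpl38 (chr11:114668540-114668599, + strand): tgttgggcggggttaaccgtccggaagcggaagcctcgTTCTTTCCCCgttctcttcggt
Rpl18 (chr7:45718031-45718090, + strand): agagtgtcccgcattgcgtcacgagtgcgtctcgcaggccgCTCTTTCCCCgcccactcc
Rpl28 (chr7:4792925-4792984, + strand): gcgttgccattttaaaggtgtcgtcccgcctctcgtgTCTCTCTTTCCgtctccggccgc
Rpl35 (chr2:39005112-39005171, - strand): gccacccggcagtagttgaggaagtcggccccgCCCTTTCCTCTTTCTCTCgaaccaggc
Rps6 (chr4:86857348-86857407, - strand): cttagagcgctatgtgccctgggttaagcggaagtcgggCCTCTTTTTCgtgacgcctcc
Rps18 (chr17:33955646-33955705, - strand): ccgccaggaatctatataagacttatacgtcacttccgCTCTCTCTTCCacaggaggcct
Rps26 (chr10:128626487-128626546, - strand): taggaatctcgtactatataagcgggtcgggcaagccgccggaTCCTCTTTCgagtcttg
Rps27 (chr3:90213629-90213688, - strand): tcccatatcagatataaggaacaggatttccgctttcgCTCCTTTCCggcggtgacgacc
The run was 18 bases long in Rpl35, 14 in Rpl4, 11 in Rpl19, Rpl28 and Rps18, 10 in Rpl18, Rpl38 and Rps6, 9 in Rps26 and Rps27, and 7 in Rpl12. Rpl4, which had no peak in either list, thus carried the second longest run of those shown. The shares given further below use the GENCODE reference starts instead, where the longest run can differ. There it was 5 bases in Rpl35 and Rps6, 3 in Rpl28, 6 in Rps26 and 8 in Rpl12. Rpl35, Rps6, Rpl28 and Rps26 thus fell short of the 8 bases counted there.

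The 3 paralogs Rpl3l, Rpl10l and Rpl39l replace the widely used Rpl3, Rpl10 and Rpl39 proteins in certain tissues, Rpl3l in heart and skeletal muscle and the other two in the testis. Their start regions are shown for contrast in the same form.
Rpl3l (chr17:24727786-24727845, + strand): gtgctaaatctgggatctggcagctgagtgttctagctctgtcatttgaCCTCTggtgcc
Rpl10l (chr12:66284382-66284441, - strand): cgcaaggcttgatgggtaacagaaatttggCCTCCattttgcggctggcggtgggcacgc
Rpl39l (chr16:10170188-10170247, + strand): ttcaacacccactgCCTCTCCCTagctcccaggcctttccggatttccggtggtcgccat
The longest pyrimidine run was 5 bases in Rpl3l and in Rpl10l, and in Rpl39l a run of 9 bases began 26 bases before the start.

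Nearly all ribosomal protein genes had a promoter peak, that is, a peak whose nearest edge lay within 1 kb of an annotated start site. In the proximal list 66 of 72 had one (91.7%, interval 83.0 to 96.1), where 56.4% of all autosomal protein-coding genes did. In the distal list 67 of 72 had one (93.1%, interval 84.8 to 97.0), against 57.7% of all genes. A promoter peak in both lists was found for 65 members (90.3%), against 55% of all genes, and 4 members (5.56%) had a promoter peak in neither list, against 40.9%. Only 1 member had a peak in the proximal list alone and 2 in the distal list alone, while 1.37% and 2.77% of all genes fell into these classes. Of the 68 members with a promoter peak in either list, 65 (95.6%) had it in both, which is near the 93% of all genes with a promoter peak in either list.

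The small subunit was covered completely, with promoter peaks for 29 of 29 Rps genes in both lists (100%, interval 88.3 to 100). Of the large subunit genes, 36 of 43 had one in both lists (83.7%, interval 70.0 to 91.9), so that all 7 members with a missing peak encode large subunit proteins. The intervals of the subunits overlap. Of those 7, 3 were the tissue-limited paralogs. Without these, 65 of 69 members (94.2%, interval 86.0 to 97.7) had a peak in both lists, against 55% of all genes. A peak in at least 1 list was found for 68 of 69 (98.6%, interval 92.2 to 99.7), against 59.1% of all genes.

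**Figure D1:**
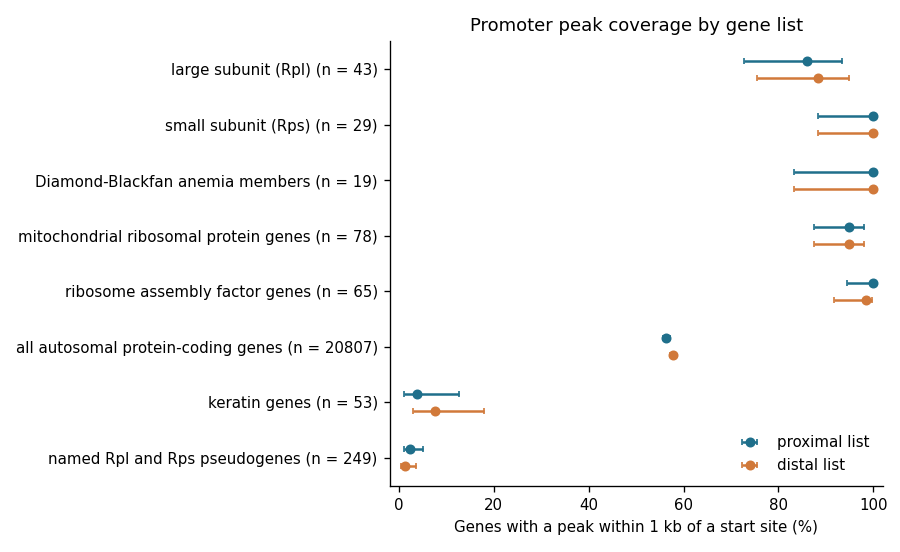
Share of genes with a peak within 1 kb of a start site (x axis, percent) in the proximal and distal lists, by gene list, with 95% Wilson intervals as bars that cover counting error only. All 29 small subunit genes and all 19 Diamond-Blackfan anemia members have a peak in both lists, while 3.77% and 7.55% of the 53 keratin genes have one.

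Other gene lists place these shares. Of 78 genes for proteins of the mitochondrial ribosome, 74 (94.9%) had a promoter peak in each list and 73 in both. Of 65 genes for ribosome assembly factors, which process ribosomal RNA and load the proteins in the nucleolus, 65 had a peak in the proximal list and 64 in the distal list. Keratin genes, which serve epithelia and hair, had a promoter peak in 2 of 53 cases in the proximal list and in 4 in the distal list. These shares of 3.77% and 7.55% were 1.89% and 3.77% with 1 start taken per gene, and 3.77% in both lists where the peak had to overlap the start. Named pseudogenes of Rpl and Rps genes, which are mostly copies of the mRNAs inserted elsewhere without their promoters, had a peak within 1 kb of the start in 6 of 249 cases (2.41%) in the proximal list and in 3 (1.20%) in the distal list. A peak overlapping the start was found for 0.402% of them in each list. The ribosomal protein genes were thus covered to a share close to that of the other ribosome lists, with overlapping intervals.

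Rpl4 encodes a large subunit protein that reaches into the tunnel through which the nascent chain leaves. No promoter peak was found for it in either list. The nearest proximal peak lay 79.7 kb downstream of its reference start (chr9:64253025-64253949), and no proximal peak lay within 50 kb of the gene. The start of Zwilch, which encodes a kinetochore protein, lies 271 bp upstream on the other strand and had no promoter peak either. The nearest distal peak was 673 bp wide (chr9:64179001-64179673) and lay 5626 bp downstream of the reference start, at the start of Snapc5. From another annotated start of Rpl4 it lay 1866 bp away. Snapc5 had a promoter peak in the distal list and none in the proximal list.

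Rpl38 encodes a small protein of the large subunit and is the Tail-short gene. It was the 1 member with a promoter peak in the proximal list alone, a peak of 920 bp that reached from 213 bp before to 706 bp after the start (chr11:114668311-114669230). The distal list had no peak closer than 4695 bp from the start, where a 457 bp peak followed downstream (chr11:114673219-114673675). The proximal list had its next peak at a similar place, 4703 bp downstream, so the lists differed at the promoter and not at the next peak.

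Rpl12, whose protein forms the base of the stalk that recruits translation factors, had a promoter peak in the distal list alone. It was 605 bp wide (chr2:32961399-32962003) and also covered the start of Lrsam1, a ubiquitin ligase gene on the opposite strand 304 bp upstream. The next peaks downstream lay 5207 bp from the start in the proximal list and 5153 bp in the distal list. Rpl19, whose protein takes part in a bridge between the subunits, had a distal peak of 664 bp (chr11:98026509-98027172) and no proximal promoter peak. There the next peaks downstream lay at 8947 bp in the proximal list and 8904 bp in the distal list. As each end is a single list, it was not tested whether these 3 promoters differ in accessibility between the ends.

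The tissue-limited paralogs had no promoter peak in either list. For Rpl10l the nearest peak was 126 kb away in the proximal list and 352 kb in the distal list, and for Rpl39l it was 22.2 kb away in both. The peak nearest to the reference start of Rpl3l was the promoter peak of Rps2, a small subunit gene on the same strand. It lay 7507 bp upstream in the proximal list and 7357 bp in the distal list. Measured from any annotated start of Rpl3l, another peak was closer. That peak lay 3554 bp away in the proximal list and 3558 bp in the distal list. Rpl3, the widely used counterpart of Rpl3l, had peaks of 714 bp in the proximal list and 737 bp in the distal list across its start. The counterparts of Rpl10l and Rpl39l are on chromosome X and were not assessed.

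In their position the peaks sat on the starts. For each gene 1 reference start was taken from a protein-coding transcript, ranked by GENCODE's basic set, APPRIS level and transcript support. The nearest promoter peak covered it for 65 of 66 members in the proximal list (98.5%) and for 66 of 67 in the distal list (98.5%), against 87.3% and 87.1% of all genes with a promoter peak. The exception in both lists was Rpl35, which encodes a protein beside the exit of the nascent chain tunnel: its peaks began 87 bp and 54 bp downstream of the reference start. The RefSeq start of Rpl35 lies 493 bp downstream of that position, inside the peak of each list. Over the 47 members that RefSeq lists and that had a proximal peak, the peak covered a RefSeq start in 45, and in the distal list it did so in 47 of 48, against 91.1% and 90.8% of all genes. The exceptions were Rpl18 in both lists, whose RefSeq start lies 2614 bp downstream of the reference start, and Rps26 in the proximal list, whose RefSeq start lies 241 bp downstream, and in both cases a second promoter peak of the gene covered it.

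**Figure D2:**
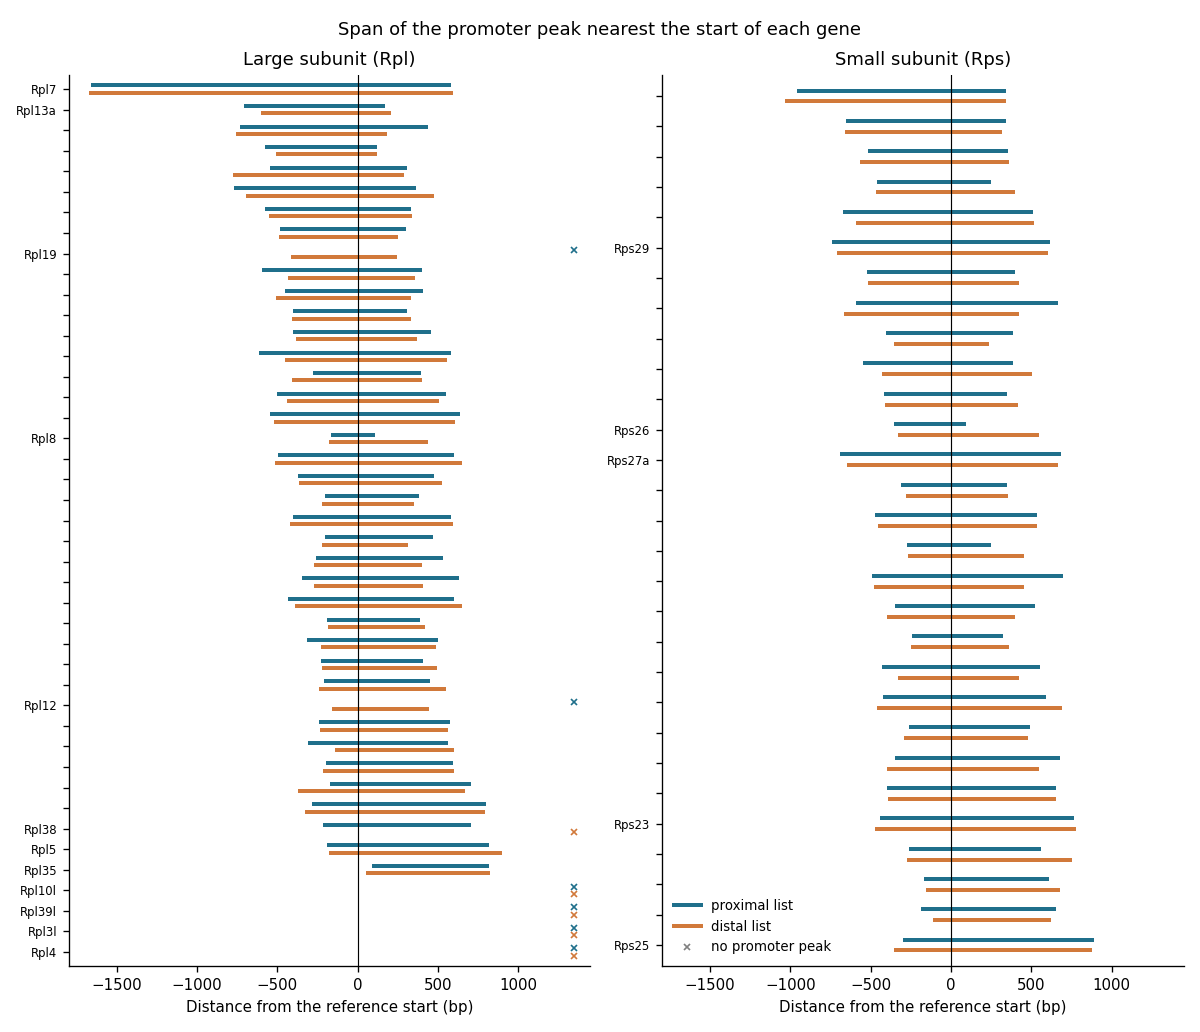
Span of the promoter peak nearest the reference start for each of the 72 genes, in bp from that start (vertical line, with downstream to the right), for the proximal and distal lists, with a cross where a list has no promoter peak. Genes are ordered by the mean centre of their peaks, those without a peak last, and some are labelled. Nearly all bars cross the line, Rpl35 begins 87 and 54 bp to its right, and Rpl7 reaches 1664 and 1671 bp to its left.

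The peak centres lay a median of 47.3 bp downstream of the reference start in the proximal list (quartiles -61.4 and 126) and 46 bp in the distal list (quartiles -41.5 and 129). Over all genes the medians were 44.5 bp and 40.5 bp, close to those of the members. The direction depended on the start used. Measured from the nearest start of any transcript the members' medians were -18.5 bp and -14.5 bp, and measured from RefSeq starts they were -1.5 bp and 0.5 bp, against 39.5 bp and 34.5 bp over all genes. From the start, the peaks of the members reached a median of 404 bp upstream and 504 bp downstream in the proximal list, and 401 bp and 476 bp in the distal list. Among the centres that lay farthest upstream were those of Rpl7 (-541 bp in the proximal list and -540 bp in the distal list) and Rpl13a (-267 bp and -199 bp). Those farthest downstream belonged to Rpl35 (454 bp and 438 bp), Rpl5 (316 bp and 358 bp) and Rps25 (295 bp and 261 bp). At the reference start, 90.3% and 91.7% of members were covered in the proximal and distal lists, against 49.2% and 50.3% of all genes. Shares at a given distance count genes without a peak as well, so they do not compare how far the peaks reach. At 500 bp before the start, 27.8% of members were covered in the proximal list and 25% in the distal list, against 19.3% and 19% of all genes. At 500 bp after it 47.2% and 41.7% of members were covered, against 27.5% and 27%. At 1000 bp after it 0% of members were covered in either list, against 4.35% and 4.24%.

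**Figure D3:**
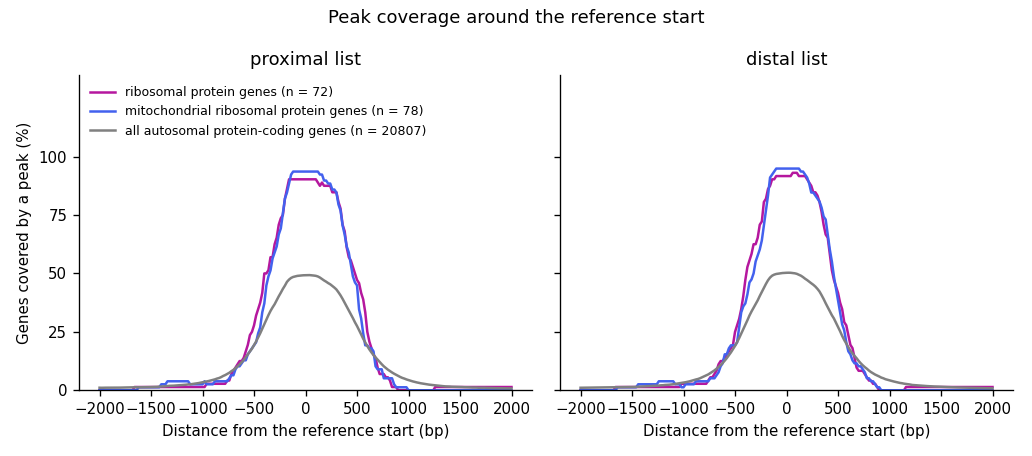
Share of genes covered by a peak (y axis, percent) at each distance from the reference start (x axis, bp) in the proximal and distal lists, for ribosomal protein genes, mitochondrial ribosomal protein genes and all autosomal protein-coding genes. Coverage of ribosomal protein genes reaches 90.3% and 93.1% beside the start, where all genes reach 49.3% and 50.3%, and is 0% at 1000 bp after it.

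The median width of the promoter peaks of these genes lay somewhat below that of all genes. The nearest promoter peak had a median width of 877 bp in the proximal list (n = 66, range 273 to 2247) and 865 bp in the distal list (n = 67, range 535 to 2263). Over all genes with a promoter peak the medians were 959 bp and 938 bp, and 27 of 66 and 27 of 67 members lay above them. Above the upper quartile of all genes lay 11 members in the proximal list and 9 in the distal list. Below the lower quartile lay 17 and 19. In the small subunit the medians were 938 bp in both lists, and in the large subunit 861 bp and 805 bp. Mitochondrial ribosomal protein genes had medians of 823 bp and 801 bp.

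The widest peak was that of Rpl7, a large subunit protein, at 2247 bp in the proximal list and 2263 bp in the distal list. Only 14 of 11726 genes in the proximal list and 15 of 12016 in the distal list had a wider one. It reached over the start of Rdh10, which encodes a retinol dehydrogenase of retinoic acid synthesis and begins 1112 bp upstream on the other strand, so that 1 peak covered both promoters. Also among the 5 widest were Rps27a (1383 bp in the proximal list and 1313 bp in the distal list), which encodes a small subunit protein fused to ubiquitin, Rps29 (1357 bp and 1316 bp) and Rps23 (1210 bp and 1255 bp), whose protein lines the decoding centre.

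By the mean of both lists, by which the widest and narrowest were ranked, the narrowest was that of Rpl8, whose protein lies close to the catalytic centre of the large subunit. Its peak was 273 bp wide in the proximal list (chr15:76903913-76904185), narrower than the nearest promoter peak of every one of the other 11725 genes with one in that list. In the distal list it was 621 bp wide (chr15:76903897-76904517), and 12.5% of genes had a narrower one. The other narrow peaks were those of Rpl23a (582 bp in the proximal list and 576 bp in the distal list), which forms the docking site at the tunnel exit, Rps15 (565 bp and 611 bp), Rpl6 (581 bp and 604 bp) and Rpl36 (677 bp and 535 bp). These 4 lay between 535 bp and 677 bp in both lists.

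The lists placed nearly the same promoter peaks. Taking every peak within 1 kb of a start site, the members had 70 peaks in each list, and 68 of them overlapped a peak of the other list in each (97.1%, interval 90.2 to 99.2). Among promoter peaks of all genes 95.9% of the proximal peaks and 93% of the distal peaks did. With an overlap of at least 50% of both peaks, 65 proximal (92.9%) and 66 distal peaks (94.3%) of the members were shared, against 94.4% and 91.2% of the promoter peaks of all genes. Over the 65 members with a peak in both lists, the overlap was a median of 90.2% of the combined span, against 90.8% over all genes, and the centres lay a median of 34.5 bp apart, against 33.5 bp. The peak was wider in the proximal list for 32 members and in the distal list for 32, with equal widths for Rps16 (938 bp). Over all genes it was wider in the proximal list for 6213 and in the distal list for 5164 of 11440. The widths in the lists correlated across these 65 genes with a Pearson r of 0.88 and a Spearman rho of 0.83, which describes 2 lists made in the same way and is not a test.

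**Figure D4:**
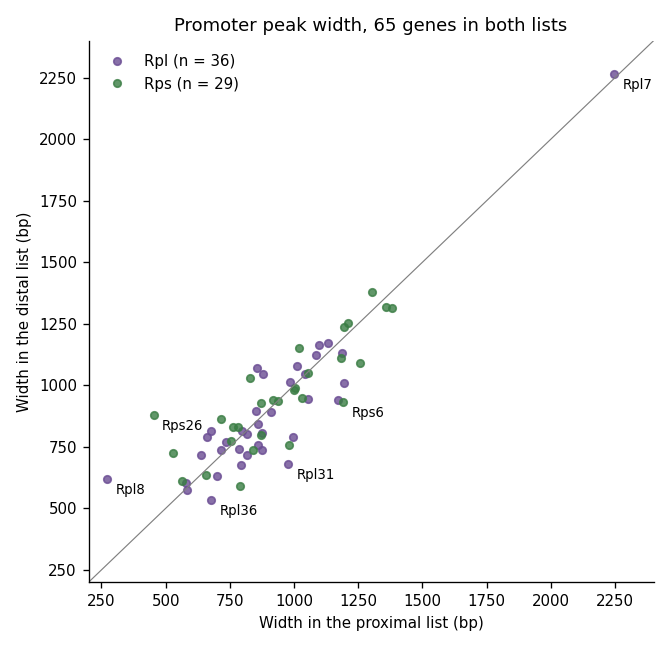
Width of the nearest promoter peak in the proximal list (x axis, bp) against the distal list (y axis, bp) for the 65 genes with a peak in both, with the line of equal width. Most points lie near the line. Rpl7 stands alone at 2247 and 2263 bp, and Rps26 and Rpl8 lie above the line.

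The largest difference in width was that of Rps26, which encodes a small subunit protein at the mRNA exit channel: 454 bp in the proximal list and 881 bp in the distal list. The proximal list holds 2 peaks at this promoter, with 48 bases between them, which together span 939 bp (chr10:128626166-128626602 and chr10:128626651-128627104), while the distal list holds 1 (chr10:128626196-128627076). The region covered was thus alike and the number of peaks into which it was divided differed. Rpl8 came second (273 bp against 621 bp). For Rpl31 the proximal peak was wider (977 bp against 682 bp), as it was for Rps6 (1192 bp against 934 bp), the substrate of the S6 kinases, and for Rpl7a (1170 bp against 940 bp). The median absolute difference was 68 bp over the members and 65 bp over all genes.

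A second promoter peak was listed for 5 members, Rps26 included. For Rpl18 both lists had a further peak (687 bp in the proximal list and 723 bp in the distal list) 2179 bp and 2165 bp from the reference start, at the start of Sphk2, a sphingosine kinase gene, and this peak also holds the start that RefSeq gives for Rpl18. For Rps18 both lists had one (758 bp and 647 bp) near B3galt4. Rpl41 had a second peak in the distal list alone (920 bp), near Zc3h10, and Rps24 in the proximal list alone (454 bp), near Polr3a, a subunit gene of RNA polymerase III. In 13 of 66 proximal and 14 of 67 distal cases the nearest promoter peak of a member covered the start of another protein-coding gene, with median widths of 871 bp and 849 bp, against 877 bp and 865 bp for the others. Among these neighbours were Nkiras1 beside Rpl15, Med22 beside Rpl7a, Lias beside Rpl9, Iqcg beside Rpl35a, Vps52 beside Rps18 and Ndufa7 beside Rps28. Rps10 was counted only through RPS10-NUDT3, a gene entry that bears its name. Matching shares over all genes were not taken for these counts or for the second peaks. Neither is therefore read as particular to the members.

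The genes whose human counterparts are mutated in Diamond-Blackfan anemia were all covered. Each of the 19 listed had a promoter peak in both lists (100%, interval 83.2 to 100), against 65 of 69 members without the tissue-limited paralogs and 55% of all genes. The list had median widths of 861 bp in the proximal list and 800 bp in the distal list. Rps19, the gene most often mutated in that disease, had peaks of 1258 bp and 1091 bp. Rpl5 and Rpl11, whose proteins bind the 5S RNA and can hold the p53 regulator Mdm2, had 1010 bp and 1078 bp, and 663 bp and 789 bp. Of the other members of the list, the widths were 1187 bp and 1130 bp for Rpl15, 861 bp and 841 bp for Rpl26, and 980 bp and 756 bp for Rps15a. Rps28 had 791 bp and 589 bp.

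In mice, a list was made of 5 members known from spontaneous or chemically induced mutants with phenotypes of skeleton, coat or skin, and it may not be complete. Of these, 4 had a promoter peak in both lists and Rpl38 in the proximal list alone, against 90.3% of members and 55% of all genes with one in both. Rpl24, the gene of the Belly spot and tail mutant, had peaks of 877 bp in the proximal list and 738 bp in the distal list. Rps7 had 1031 bp and 947 bp. Rps19 and Rps20 are Dark skin genes, and the peaks of Rps20 were 1018 bp and 1151 bp wide.

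Rps27 and Rps27l are a pair of paralogs that are both widely used. Rps27 had peaks of 658 bp and 635 bp, and Rps27l, which also responds to p53, had peaks of 1005 bp and 991 bp, in the proximal and distal lists.

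The genes themselves were compact. Their median length was 3328.5 bp, against 17629 bp over all autosomal protein-coding genes, and they had a median of 6 annotated start sites against 3. Small nucleolar RNA (snoRNA) genes, whose RNAs guide the modification of ribosomal RNA, lay inside 25 of the 72 (34.7%), against 2.03% of all genes, with 5 inside Rpl4 and 4 inside Rpl13a. Of these 25 hosts, 23 had a promoter peak in both lists, and of the 47 other members 42 did. A peak inside the gene that was no promoter peak was found for 2 members in the proximal list (Rps14 and Rps15a) and for 1 in the distal list (Rps14), against 18.4% and 18.3% of all genes, which are also longer. Around the genes, a median of 2 further peaks lay within 50 kb in each list, as over all genes.

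The sequence around the reference starts was searched for short words known from housekeeping promoters, from 250 bases before to 50 bases from the start on, on both strands. These were CCGGAAG (bound by ETS factors), ATGGCGG (YY1), CTCGCGAG (a palindrome called the M1 element), TGACGTCA (CRE, the cAMP response element), GCATGCGC (NRF1), GGGCGG (the GC box) and CCAAT (the CCAAT box). The YY1 and GC box words share the letters GGCGG and can overlap. TATAAA, here called the TATA box word, was searched in the last 50 bases before the start on the coding strand alone. Other forms of the TATA box were not searched. The start regions of Rps18 and Rps26 shown above hold TATATAA, which this word does not match.

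A pyrimidine run of at least 8 bases touched the 20 bases on either side of the start in 33 of 72 members (45.8%, interval 34.8 to 57.3). Of all promoters 20.4% had such a run, of those with a peak in both lists 18.9%, and of the mitochondrial ribosomal protein genes 16.7%. The reference start itself was a C in 34.7% of members, against 17.7% of all genes. The ETS word stood in 22 members (30.6%) against 11.4% of all promoters and 18.1% of those with a peak in both lists. The YY1 word stood in 13 members (18.1%) against 5.19% and 7.82%. The M1 element stood in 9 members (12.5%), among them Rpl4, Rpl10a, Rpl17, Rpl26, Rpl27a, Rps6 and Rps28, against 1.18% and 1.89%.

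The CRE word stood in 5 members (6.94%, interval 3.0 to 15.2) against 2.48% of all promoters, and 3.58% of those with a peak in both lists. The NRF1 word stood in 4 (5.56%, interval 2.18 to 13.4) against 3.48% and 5.34%. The GC box stood in 48.6%, near the 46.2% of all promoters and below the 64.9% of those with a peak in both lists, and the CCAAT box in 27.8% against 38.2%. The TATA box word stood in 0 of 72 members (upper bound of the interval 5.07%), against 3.39% of all promoters and 1.17% of those with a peak in both lists. The mitochondrial list was like the members in the ETS word (37.2%) and the YY1 word (20.5%) and lower in pyrimidine runs. GC content had a median of 55.5% in the members, 56.3% in all promoters and 61% in those with a peak in both lists. The observed over expected CpG ratio had a median of 0.855 in the members and 0.573 in all promoters. In promoters with a peak in both lists the median ratio was 0.771, and in the mitochondrial list it was 0.822. The lowest ratio among the members was that of Rpl3l, 0.0893.

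**Figure D5:**
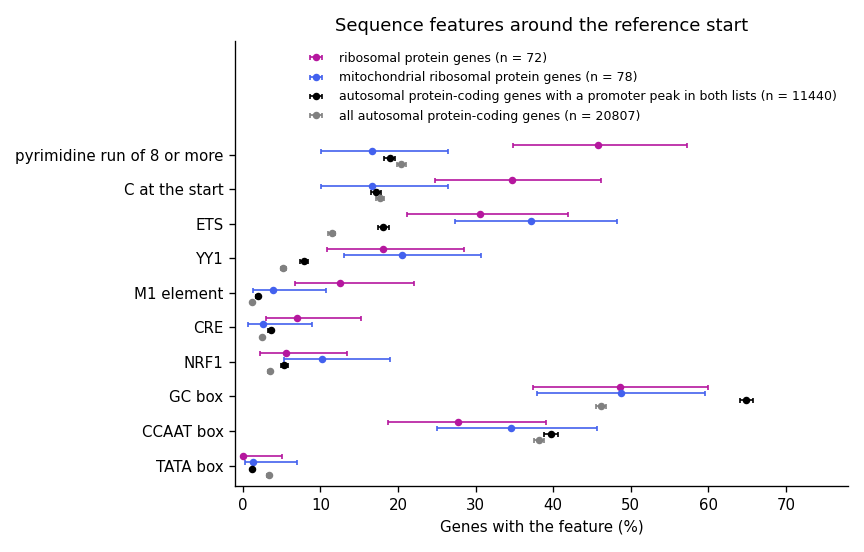
Share of genes (x axis, percent) with each sequence feature around the reference start, for ribosomal protein genes, mitochondrial ribosomal protein genes, genes with a promoter peak in both lists and all autosomal protein-coding genes, with 95% Wilson intervals as bars. Pyrimidine runs stand at 45.8% in the ribosomal protein genes and 16.7% in the mitochondrial list, while the ETS word stands at 30.6% and 37.2%.

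The position of the start matters for such features. RefSeq promoters were found for 53 of the 72 members, and the RefSeq start lay within 10 bp of the GENCODE reference start in 19 of them (median distance 26 bp). With the RefSeq starts, 27 of 53 members (50.9%) had a pyrimidine run of at least 8 bases, against 20.4% of 15687 genes. The ETS word then stood in 39.6% against 12.5% and the M1 element in 11.3% against 1.31%, and the TATA box word again in 0 of 53.

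Longer stretches of 4 promoters show these words in place, 2 from members that lacked a peak in a list and 2 from members with the M1 element and peaks in both. They run from 250 bases before the RefSeq start to 20 bases from it on, on the coding strand of GRCm38.p6, and capitals mark any of the 7 words searched on both strands. Where RefSeq gives several starts, the start was chosen as for the start regions above.
Rpl4 (chr9:64173137-64173406, + strand): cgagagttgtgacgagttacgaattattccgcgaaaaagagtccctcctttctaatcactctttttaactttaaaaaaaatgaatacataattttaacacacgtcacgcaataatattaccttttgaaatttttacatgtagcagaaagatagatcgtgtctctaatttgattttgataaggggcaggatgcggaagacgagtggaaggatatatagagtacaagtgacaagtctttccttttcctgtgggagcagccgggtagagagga
Rpl26 (chr11:68901316-68901585, + strand): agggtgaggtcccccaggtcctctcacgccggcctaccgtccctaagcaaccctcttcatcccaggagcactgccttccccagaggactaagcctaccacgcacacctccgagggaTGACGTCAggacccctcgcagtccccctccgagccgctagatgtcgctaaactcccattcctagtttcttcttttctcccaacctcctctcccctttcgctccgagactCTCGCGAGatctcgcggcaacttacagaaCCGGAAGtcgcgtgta
Rpl38 (chr11:114668330-114668599, + strand): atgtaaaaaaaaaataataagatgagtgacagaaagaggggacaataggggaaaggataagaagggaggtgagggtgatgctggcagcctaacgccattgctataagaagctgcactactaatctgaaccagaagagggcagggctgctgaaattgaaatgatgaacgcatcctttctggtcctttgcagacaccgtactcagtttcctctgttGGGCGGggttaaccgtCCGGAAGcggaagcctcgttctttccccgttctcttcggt
Rps28 (chr17:33824543-33824812, - strand): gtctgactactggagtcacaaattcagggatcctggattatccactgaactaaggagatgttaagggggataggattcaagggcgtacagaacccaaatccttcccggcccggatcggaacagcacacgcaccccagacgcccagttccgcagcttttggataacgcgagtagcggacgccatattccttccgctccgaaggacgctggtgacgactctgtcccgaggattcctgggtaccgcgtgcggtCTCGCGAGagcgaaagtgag
The Rpl26 stretch holds the CRE, M1 and ETS words, and its peaks were 861 bp and 841 bp wide. The Rps28 stretch holds the M1 element at the start itself. The Rpl38 stretch, open in the proximal list, holds the GC box and ETS words close to the start. The Rpl4 stretch, in which neither list has a peak, holds none of the 7 words; its M1 element lies outside the bases shown. These matches describe the letters and do not show that a factor binds.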

How the data were processed

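Chondrocytes of the proximal and distal femur were profiled by ATAC-seq. Per the submitters' processing notes, Bowtie2 2.2.8 placed the reads on mm10 and MACS2 2.1.1 called the peaks. The authors removed duplicate reads and kept peaks reproducible between 2 biological replicates at an irreproducible discovery rate under 0.05. The deposited values are positions (chromosome, start, end), 1 list per femur end, without score or replicate; the depth per sample was not analysed here.

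Peaks were assigned to genes of GENCODE mouse release 21 with Python 3.11.15, NumPy 2.4.6, SciPy 1.17.1 and pysam 0.24.0. A promoter peak had its edge within 1 kb of the start of any transcript of the gene, and positions and widths refer to the peak nearest 1 reference start. Shares have 95% Wilson intervals, which treat genes as independent. No test was run. The search routines were checked on simulated data. Genes named were those without a peak in a list, with 2 promoter peaks, the 5 widest, 5 narrowest and 5 most different in width, the 3 with centres farthest on each side, the tissue-limited paralogs and the disease and mutant lists; others (Rps14, Rps16, the M1 genes, neighbours, and Rpl18, Rpl28, Rps18 and Rps27 among the sequences) were chosen after their values were seen. Some genes that the rule names are not reported here. The members and lists were chosen with earlier results of these data known. FVB mice were compared with a reference genome of another strain.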

Additional observations from a re-analysis of the deposited data

How the results depend on the processing

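The counts of members with a promoter peak, the shared share, the median width and centre offset, the sequence features and the shares of the other gene lists were recomputed under alternatives; values by subunit, disease, mutant or marker list and the comparisons of widths between lists were not. The counts of members with a promoter peak in the proximal list, the distal list and both lists stayed within 1.5 times of the values given under every one of them. Requiring the peak to overlap the start, a distance of 500 bp, a centre within 1 kb, protein-coding transcripts alone or 1 reference start per gene gave the same 66, 67 and 65 genes by number. With 3 kb the distal list reached 68, as the peak at the start of Snapc5 was then counted for Rpl4. With 11 more ribosomal protein genes (Rplp0, Rpsa, Fau and others) 75 of 83 had a peak in both lists. Without the narrower peaks of each list (those under its median width), the members numbered 50 in both lists, 10 in 1 list alone and 12 in neither, and the shared share of distal peaks was 89.5%. Counts over all genes were not taken under that filter, so it is not known whether the members differ from them there. The median offset of the peak centres changed sign with the nearest start of any transcript, to -18.5 bp in the proximal list and -14.5 bp in the distal list, and was -1.5 bp in the proximal list and 0.5 bp in the distal list with RefSeq starts, an alternative chosen after seeing the data. When the peak had to overlap the start, 0.402% of pseudogenes in each list and 53.9% and 55.0% of all genes had one, and 1 reference start per gene gave 52.5% and 53.9% of all genes. The paper describes the proximal and distal ends as pooled separately from a litter, so the ends may share litters. No paired analysis was possible because a list holds no single replicates. The reads were not used here, and from positions alone a peak missing from a list cannot be told from one just short of the threshold, which applies to Rpl4, Rpl12, Rpl19 and Rpl38.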

Other observations

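Among the mitochondrial ribosomal protein genes, Mrpl23, Mrpl55 and Mrps34 had no promoter peak in either list, Mrpl10 had one in the proximal list alone and Mrpl58 in the distal list alone. Of the assembly factors, Pes1, a factor of large subunit maturation, had one in the proximal list alone. Of the 11 further ribosomal protein genes outside the symbol rule, 10 had a promoter peak in both lists and Rps27rt, a retrogene of Rps27, had none. Of 238 named pseudogenes farther than 2 kb from any protein-coding start, 5 had a peak near the start in the proximal list and 2 in the distal list.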
